A study of Homo sapiens with 14 samples.

Results

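The genes described are those of the mitogen-activated protein (MAP) kinase cascades that the peak lists name. A gene was taken when a peak was assigned to it, its deposited biotype was protein_coding, and its symbol was MAPK, MAP2K, MAP3K, MAP4K or MAPKAPK followed by a digit. This gave 43 of the 13808 protein-coding genes named in 4 peak lists, and the other 13765 were the background. Of the 43, 39 encode kinases and 4 do not: the JNK scaffold genes MAPK8IP1 and MAPK8IP3, and MAPK1IP1L and MAP3K7CL, which carry a kinase name in their symbol.

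The study mapped by ChIP-seq where the corepressor SKI and the transcription factor RUNX1 sit on the genome of HL60, a human cell line from an acute myeloid leukemia. SKI was precipitated from unmodified cells in replicates 1 and 2 and from the CRISPR/Cas9 control cells CTR-1, for which the labels name no guide or clone. RUNX1 was precipitated from unmodified cells only. All cells were grown in RPMI with fetal calf serum, and the 10 other samples of the series (IgG, C/EBP beta, histone marks and SKI knockout cells) were not analysed here. There was 1 list for each antibody and cell population apart from the 2 unmodified SKI lists, so no difference between unmodified and control cells has a replicate check, and nothing in the labels says whether the 2 unmodified samples came from separate cultures.

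In a MAP kinase cascade, a MAP3K phosphorylates a MAP2K, which phosphorylates a MAPK. MAP4Ks act above the MAP3Ks, and MAPKAP kinases are among the substrates of the MAPKs. The ERK branch carries growth factor signals, and the JNK and p38 branches carry stress and cytokine signals, all of them in use in myeloid cells. SKI is known as a corepressor that binds SMAD proteins and dampens TGF-beta signalling, and RUNX1 is a DNA-binding regulator of blood cell formation.

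The first SKI list of unmodified cells held 54841 peaks, the second 14431, the list of control cells 14019 and the RUNX1 list 5581. The tags inside those peaks numbered 10241078, 1109384, 1256986 and 424967. Overlapping SKI peaks were joined into sites. A site with a peak in all 3 SKI lists is called a shared SKI site, and a shared SKI site that a RUNX1 peak overlaps by at least 1 bp is called a joint site. Because the first list was by far the longest, a site found in it alone is stated as such. Fold enrichment and tags are the authors' values for each peak and are compared only within 1 list. Positions are in hg19, and distances run to the transcription start site (TSS) that the authors assigned, negative upstream.

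The promoters of 4 genes are printed first, because these genes carried shared SKI sites at their most upstream named start and none of these sites was a joint site. MAP3K8 (also TPL2) activates the ERK branch in inflammatory signalling, MAP3K4 acts in the stress branches, and MAPK11 and MAPK12 are neighbouring p38 family genes. This choice of genes was made with their values in view. The letters are the 250 bases before the RefSeq start, on GRCh38.p14, for MAP3K8 (chr10:30433771-30434020, plus strand), MAP3K4 (chr6:160991519-160991768, plus strand), MAPK11 (chr22:50270381-50270630, minus strand) and MAPK12 (chr22:50261684-50261933, minus strand). The peaks, in hg19, were not placed on these letters. Capitals mark GTCT on either strand, the core of the SMAD-binding element, and TGTGGT, the RUNX core, was searched in the same way.
MAP3K8: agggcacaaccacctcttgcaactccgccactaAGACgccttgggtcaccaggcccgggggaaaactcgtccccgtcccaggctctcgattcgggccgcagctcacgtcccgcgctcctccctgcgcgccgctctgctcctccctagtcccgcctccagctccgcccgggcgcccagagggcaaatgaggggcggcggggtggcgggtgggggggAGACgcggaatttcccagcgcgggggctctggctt
MAP3K4: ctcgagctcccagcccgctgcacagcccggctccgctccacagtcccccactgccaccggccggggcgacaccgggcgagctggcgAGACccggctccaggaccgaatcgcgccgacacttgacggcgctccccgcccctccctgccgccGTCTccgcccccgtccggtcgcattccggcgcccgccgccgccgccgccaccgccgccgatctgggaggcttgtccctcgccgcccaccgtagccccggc
MAPK11: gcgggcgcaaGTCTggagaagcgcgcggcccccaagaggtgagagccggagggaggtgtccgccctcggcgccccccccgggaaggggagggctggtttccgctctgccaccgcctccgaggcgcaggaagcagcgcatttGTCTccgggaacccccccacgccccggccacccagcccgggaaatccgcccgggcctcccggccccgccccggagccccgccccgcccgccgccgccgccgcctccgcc
MAPK12: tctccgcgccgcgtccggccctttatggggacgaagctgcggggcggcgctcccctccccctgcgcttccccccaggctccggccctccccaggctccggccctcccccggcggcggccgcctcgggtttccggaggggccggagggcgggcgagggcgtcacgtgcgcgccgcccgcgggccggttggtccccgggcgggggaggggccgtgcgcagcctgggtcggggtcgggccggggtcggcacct
The MAP3K8, MAP3K4 and MAPK11 stretches each held 2 GTCT matches, MAPK12 held 0, and none held TGTGGT.

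Over the members, RefSeq windows of 300 bases, which run 50 bases past the start, were matched for 37 of the 43. Each member gave 1 window, at its most upstream RefSeq start, while the comparison took every window of the table, whatever its start. TGTGGT lay in 1 of these 37 windows (2.70%), that of MAP3K3, against 13.1% of all 35116 windows in the table. This is a small count, no interval was computed for it, and no depletion is claimed. GTCT lay in 31 of 37 (83.8%), against 84.0% of all windows. The members' windows had a median GC content of 72.7%, against 58.7% for all windows, and the part of GC content in the TGTGGT count was not tested. A match of letters is not a bound site.

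Every member had a SKI peak in the first unmodified list, where 98.0% of other genes had one. In the second unmodified list 24 of 43 members (55.8%) had a peak, against 45.9% of other genes, and in the control list 21 of 43 (48.8%), against 44.4%. All 3 SKI lists named 19 of the members, and all 19 had a shared site. For MAPK6 and MAP3K12 this held only through a broad first-list peak that joined separate peaks of the second and control lists. Of the other 24, 17 were named in the first list alone, 5 in both unmodified lists but not in control cells, and 2, MAP3K6 and MAPK3, in the first list and in control cells. The 19 were 79.2% of the members named in the second list and 90.5% of those named in control cells. Of the other genes named in each of those lists, 75.6% and 78.2% were in both.

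**Figure D1:**
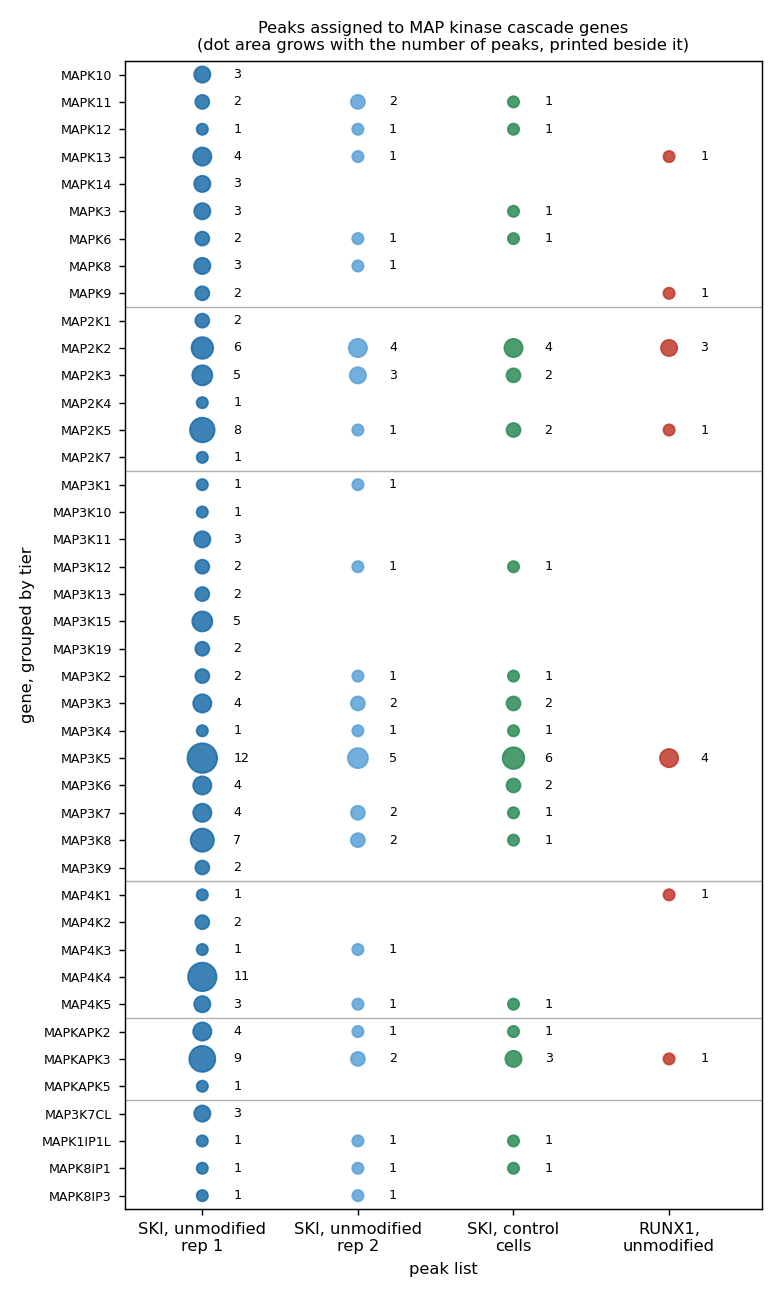
Number of peaks assigned to 42 of the 43 genes (rows, grouped by tier and separated by grey lines) in each of the 4 peak lists (columns); the dot area grows with the number printed beside it, and no dot means no peak. Every gene drawn has a peak in the first SKI list, while the RUNX1 column holds dots for 7 genes only.

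A shared SKI site was found at 19 of 43 members (44.2%, 95% Wilson interval 30.4 to 58.9%), against 35.9% of other protein-coding genes. Within 1000 bp of an assigned TSS, 17 of 43 members (39.5%, 26.4 to 54.4%) had one, against 26.5%. The RUNX1 shares were close to the background: 7 of 43 members (16.3%, 8.12 to 30.0%) had a RUNX1 peak, against 17.1%, and 4 of 43 (9.30%, 3.68 to 21.6%) had a joint site, against 11.0%. A joint site within 1000 bp of a TSS occurred at 1 member (2.33%), against 4.48% of other genes. In each of these comparisons the members' interval held the value of the other genes, the promoter share only just, so none of these differences, counted in this way over all 43 genes, exceeded the counting error. For the promoter share this did not hold under every way of counting: with the 39 kinase genes alone it was 41.0% (27.1 to 56.6%) against 26.5%, and without the control list it was 51.2% (36.8 to 65.4%) against 35.6%, both above the other genes. With all 51 symbols of the family in the reference as the denominator, the promoter share was 33.3% (22.0 to 47.0%) against 17.8% and the share with any shared site 37.3% (25.3 to 51.0%) against 23.9%, again above the other genes. The intervals cover counting error only.

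These shares depended on how many peaks were admitted. When each SKI list was shortened to its 5581 best peaks, the length of the RUNX1 list, 5 of 43 members (11.6%) kept a shared site, against 12.8% of other genes, and the promoter share was 11.6% against 7.45%. With peaks within 10 kb of a TSS alone, 4 members (9.30%) had a RUNX1 peak and 2 (4.65%) a joint site, against 12.3% and 8.28% of other genes. Without the first SKI list, 17 of 43 members (39.5%) had a shared site, against 35.1% of other genes. The promoter share was then 15 of 43 (34.9%), against 25.5%.

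**Figure D2:**
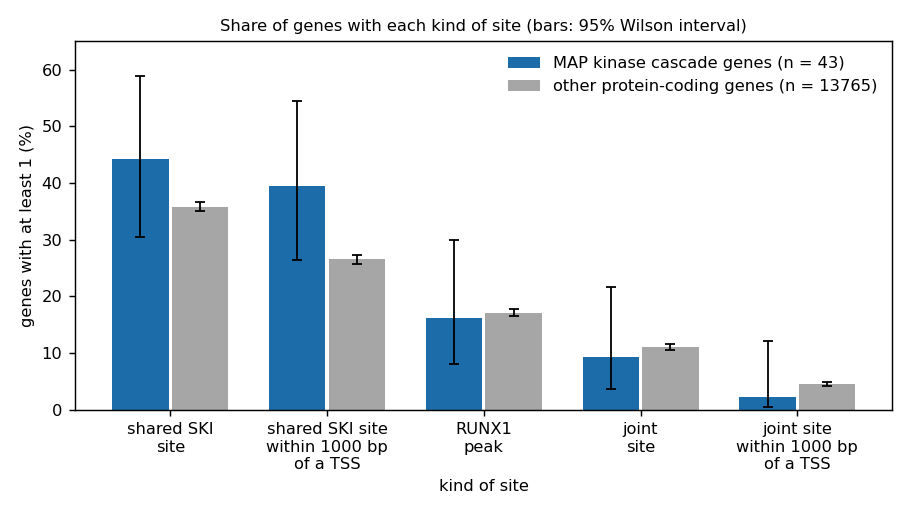
Percentage of genes (vertical axis) with at least 1 site of each kind (horizontal axis), for the 43 MAP kinase cascade genes (blue) and the 13765 other protein-coding genes (grey); error bars are 95% Wilson intervals. The blue interval reaches the grey bar in each pair.

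Among MAPK genes, the last tier, 4 of 10 had a shared SKI site (16.8 to 68.7%), an interval that holds the 35.9% of other genes. A joint site was found at 0 of 10 (0 to 27.8%), an interval that holds the 11.0% of other genes. MAPK3 (ERK1), a kinase of the ERK branch, had no shared site: its promoter peak was weak and in the first list alone (fold 8.12), and a peak 13898 bp upstream was in the first list (25.96) and control cells (6.64).

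The p38 genes differed among themselves. MAPK11 (p38 beta, chr22:50707728-50709678) had folds of 65.62, 10.09 and 14.40 at its promoter, and MAPK12 (p38 gamma, chr22:50698723-50700725) had 68.46, 8.74 and 10.47. These 2 neighbouring genes on chromosome 22 thus each had a promoter site of their own in all 3 lists. MAPK14 (p38 alpha), the most studied p38, had 3 peaks in the first list alone, with folds of 15.35, 34.98 and 25.42, the first 2 of them within 1000 bp of a TSS. MAPK13 (p38 delta) had 4 peaks in the first list and 1 in the second, none shared by all 3.

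Among the JNK genes, MAPK8 (JNK1) had a promoter peak in both unmodified lists (22.77 and 6.55) and none in control cells. MAPK9 (JNK2) had a promoter peak in the first list alone (32.64), and MAPK10 (JNK3), known mainly from brain, had 3 peaks there, with folds up to 19.33. No JNK gene therefore had a shared site, which was also so for 24 of all 43 members. MAPK6 (ERK3), an atypical MAPK, had a shared promoter site (chr15:52310761-52312929) that was low in the second list (fold 4.60, the lowest of all shared sites of members in that list), beside 25.79 in the first and 11.18 in control cells. The MAPK6 peaks of the second and control lists did not overlap each other and were joined by the broader first-list peak.

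MAP2K genes held the most joint sites. Of the 6 genes, 3 had a shared SKI site (18.8 to 81.2%), an interval that holds the 35.9% of other genes. They had 7 shared sites between them, and 4 of these were joint. A joint site was found at 2 of 6 (33.3%, 9.68 to 70.0%), an interval that holds the 11.0% of other genes. These are few genes, so the tier is not set apart from that background. MAP2K2 (MEK2), which activates ERK, held 3 of the 4 joint sites. Its strongest joint site (chr19:4104397-4105429) had SKI folds of 124.73, 92.68 and 42.77 and a RUNX1 fold of 35.84. In the second unmodified list and in control cells these were the highest folds of any member peak. The RUNX1 summit lay 1, 5 and 17 bp from the 3 SKI summits.

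That site is called promoter because it lies 278 bp from the start of the transcript ENST00000602167, but this start is 19380 bp downstream of the gene's most upstream named start, ENST00000262948. At the latter, SKI had only a weak peak in the first list (fold 8.77). The second joint site of MAP2K2 (chr19:4108258-4110027, intronic) had SKI folds of 73.99, 28.36 and 33.13 and a RUNX1 fold of 11.90. The other joint site (chr19:4088692-4090964) had 51.30, 13.89 and 7.62, with 12.96 for RUNX1.

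The remaining shared SKI site of MAP2K2 (chr19:4084143-4085054, intergenic) had 66.46, 15.12 and 6.87 and no RUNX1 peak. MAP2K2 thus carried 4 of the 27 shared sites of the family, and none of the 4 lay at its most upstream named start. MAP2K1 (MEK1), the other ERK activator, had 2 intronic SKI peaks in the first list alone (26.43 and 14.15) and no RUNX1 peak.

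MAP2K3, which activates p38, had 2 shared sites without RUNX1, next to each other at its starts: chr17:21187393-21190231 (58.70, 11.36 and 11.36) and chr17:21190271-21192368 (25.83, 5.07 and 13.12). MAP2K4 and MAP2K7, which activate JNK, each had a single peak at the TSS in the first list alone, with folds of 16.50 and 14.47. Neither the JNK genes nor the MAP2Ks above them thus had a shared site. These are few genes, and 24 of 43 members and 8828 of 13765 other genes had none either.

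MAP2K5, which activates ERK5, had a joint site 35173 bp from its assigned start, in an intron (chr15:68074953-68077390). That start is an inner one, 205651 bp downstream of the most upstream named start of MAP2K5. The peaks of that site were assigned in part to MAP2K5 and in part to SKOR1, a gene of the SKI family of corepressors that lies beyond it. The highest SKI folds of the site were 59.58, 11.55 and 13.21, and 2 RUNX1 peaks overlapped it. The RUNX1 peak assigned to MAP2K5 had a fold of 38.23. Its summit lay 1091, 44 and 1 bp from the nearest SKI summit of the first, second and control lists. The strongest SKI peaks of the first and second lists were assigned to SKOR1, so this site counts for MAP2K5 only through the control list and a weaker peak of the second list (8.42). At the MAP2K5 promoter, SKI was found in both unmodified lists (55.00 and 11.00) and not in control cells. The second-list peak there was assigned to RP11-502I4.3 and not to MAP2K5.

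Among MAP3K genes, 7 of 15 (46.7%, 24.8 to 69.9%) had a shared site, against 35.9% of other genes. They had 10 such sites in all, 2 of them joint. MAP3K7 (TAK1), which TGF-beta and interleukin-1 receptors activate, had the highest fold of any member peak in the first list. At chr6:91246752-91248234 the folds were 161.91, 22.82 and 27.54, with no RUNX1 peak. This site too lies at an inner start, 49866 bp downstream of the most upstream named start, where SKI had a peak of fold 36.09 in the first list alone. An intergenic peak 24489 bp upstream was in both unmodified lists (37.55 and 15.12) and not in control cells.

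MAP3K8, which was printed above, had folds of 150.47, 38.23 and 25.49 at its most upstream named start (chr10:30722092-30724797) without RUNX1. Its 6 other SKI peaks of the first list were in neither of the other SKI lists. MAP3K4 had 1 peak in each SKI list, all in a single promoter site (chr6:161412000-161414256; 52.27, 25.92 and 16.13). Seen by rank, MAP3K7 stayed within the top 11.5% of every SKI list, MAP3K8 within 13.5% and MAP3K4 within 31.0%.

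MAP3K5 (ASK1), a kinase that responds to oxidative stress, had the most SKI peaks of any member: 12, 5 and 6 in the 3 SKI lists, and 4 RUNX1 peaks. Its 2 joint sites lay next to each other in an intron, at chr6:137104425-137105946 (41.45, 9.06 and 6.20, RUNX1 13.35) and chr6:137105975-137107504 (33.16, 5.45 and 7.46, RUNX1 9.83). The other 2 RUNX1 peaks (9.74 and 8.93) overlapped SKI peaks of the first list alone. Its promoter had a shared site with no RUNX1 (chr6:137112073-137114541; 31.09, 7.43 and 7.62). RUNX1 at MAP3K5 was thus spread along introns at low folds, while at MAP2K2 it had 1 high peak.

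MAP3K3, which acts above ERK5 and other branches, had 2 shared sites, at its promoter (28.69, 6.74 and 12.33) and at chr17:61742593-61743523 (49.27, 10.91 and 21.65). MAP3K2 had 1 at its promoter (31.35, 8.80 and 9.69). MAP3K12, a kinase of neuronal injury signalling, had 1 whose control-cell peak was assigned to the neighbouring TARBP2 (31.61, 7.70 and 4.26). That peak lay apart from the second-list peak and was joined to it by a broad first-list peak. No shared site was found at MAP3K1, MAP3K6, MAP3K9, MAP3K10, MAP3K11, MAP3K13, MAP3K15 and MAP3K19, and apart from MAP3K1 and MAP3K6 these were named in the first list alone.

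Of the MAP4K genes 1 of 5 (20.0%, 3.62 to 62.4%) had a shared site, against 35.9% of other genes. The gene was MAP4K5, and its site (chr14:50998091-51000462) had folds of 36.89, 15.58 and 30.31. That site lies at an inner start, 27626 bp downstream of the most upstream named start. Its control-cell peak was assigned to the neighbouring ATL1. MAP4K4 had 11 SKI peaks in the first list, second in that list to MAP3K5, with folds from 9.52 to 44.66. It had no SKI peak in the other lists. MAP4K1, the blood cell member of the tier, had 1 SKI peak, in the first list (9.85), and the single RUNX1 peak of the family that overlapped no SKI site (6.80, intronic). MAP4K2 was named in the first list alone, and MAP4K3 in both unmodified lists (31.37 and 7.12).

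Among the MAPKAPK genes, MAPKAPK3 and MAPKAPK2, which p38 activates, had shared sites and MAPKAPK5 did not. This is 2 of 3 (66.7%, 20.8 to 93.9%), an interval that holds the 35.9% of other genes. MAPKAPK3 had a joint site 10242 bp upstream (chr3:50638268-50639263), with SKI folds of 84.68, 10.92 and 12.52 and a RUNX1 fold of 22.62. Its promoter site (chr3:50648467-50649974) had 44.00, 5.96 and 22.78 and no RUNX1. The farther site was thus the higher of the pair in both unmodified lists and the lower in control cells. MAPKAPK2 had a promoter site (chr1:206857845-206860692) with 40.30, 7.71 and 8.72.

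Of the 4 genes that encode no kinase, MAPK1IP1L had a shared promoter site (36.32, 9.26 and 11.63), and MAPK8IP1 had one in an intron (34.37, 10.08 and 8.72). MAPK8IP3 had a promoter peak in both unmodified lists (39.96 and 7.58), and MAP3K7CL had 3 peaks in the first list alone. Without these 4 genes, 17 of 39 kinase genes (43.6%) had a shared site.

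The 12 RUNX1 peaks of the family fell on 7 genes: 4 on MAP3K5, 3 on MAP2K2 and 1 each on MAP2K5, MAPKAPK3, MAPK9, MAPK13 and MAP4K1. The highest was at MAPK9, in an intron 6490 bp upstream of its assigned start, with a fold of 39.52 and 181 tags. That start is an inner one, 27185 bp downstream of the most upstream named start of MAPK9. This RUNX1 peak overlapped a SKI peak of the first list (65.31) that neither other SKI list had. MAPK13 had the same pattern 12547 bp upstream (RUNX1 11.90, SKI 44.23 in the first list). In all, 7 RUNX1 peaks were in shared SKI sites, 4 in SKI sites of the first list alone and 1 outside SKI.

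One of the 12 RUNX1 peaks (8.33%, 1.49 to 35.4%) lay in the authors' TSS class, against 30.1% of RUNX1 peaks of other genes, and 8 of 12 (66.7%, 39.1 to 86.2%) were intronic, against 41.2%. The interval of the TSS class held the value of the other genes, and so did that of the introns. The peaks share genes, 4 of them in MAP3K5, and are not independent. SKI peaks of members lay at starts about as often as those of other genes: 40.8%, 68.4% and 62.9% of member peaks were in the TSS class in the first, second and control lists, against 44.5%, 61.8% and 58.1% for other genes.

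**Figure D3:**
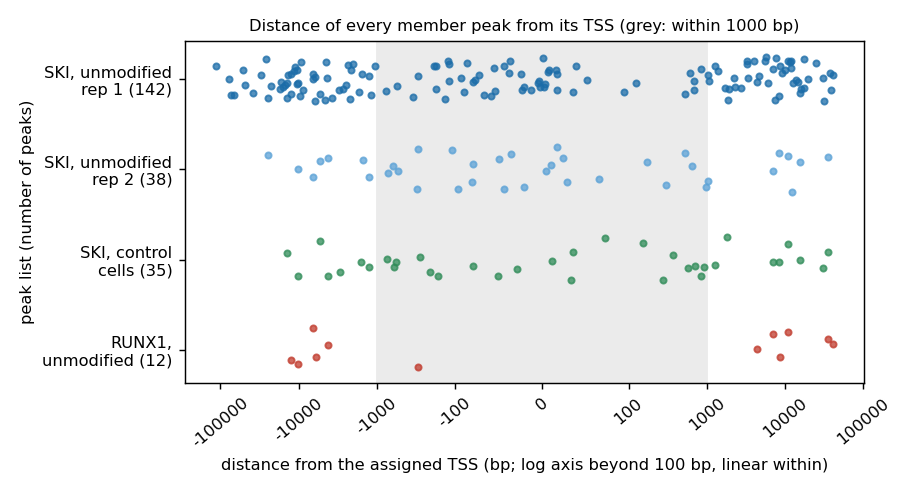
Distance of each member peak from its assigned TSS in bp (horizontal axis, logarithmic beyond 100 bp and linear within), one point per peak, in the 4 lists (rows, number of peaks in brackets; vertical scatter within a row has no meaning); grey marks 1000 bp on either side. In the second SKI list 24 of 38 peaks are in the grey band, and in the RUNX1 list 1 of 12.

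Of the 27 shared SKI sites of members, 18 (66.7%, 47.8 to 81.4%) were within 1000 bp of a TSS, against 58.0% of shared sites of other genes. A RUNX1 peak overlapped 7 of the 27 (25.9%, 13.2 to 44.7%), against 28.3%. Split by position, it overlapped 1 of 18 promoter sites (5.56%, 0.988 to 25.8%), against 16.4%, and 6 of 9 farther sites (66.7%, 35.4 to 87.9%), against 44.8%. Both intervals held the value of the other genes. The sole promoter site with RUNX1 was the inner start of MAP2K2. A shared site at the most upstream named start was found at 14 members (32.6% of 43, against 24.0% of other genes). None of these 14 had RUNX1 there, and of the 3309 other genes with such a site 469 had it. The 14 are few genes, so their lack of RUNX1 is not set apart from that background. Of the 18 promoter sites, 3 (16.7%) were at an inner start over 5000 bp downstream, those of MAP2K2, MAP3K7 and MAP4K5, against 13.9% for other genes.

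The sites found in all lists were higher in the first list than the rest: the 99 sites of the first list alone had a median fold of 16.5, the 8 also in control cells 24.1, the 8 also in the second list 33.6 and the 27 shared sites 44.0. Among the shared sites the 7 with RUNX1 had median SKI folds of 59.6, 11.6 and 12.5 and the 20 without 38.6, 9.67 and 11.7. For other genes these medians were 68.1, 15.2 and 19.0 with RUNX1 and 41.0, 10.9 and 11.1 without. The ranges of the sites with and without RUNX1 overlapped in each list.

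The order of the 27 sites by fold was partly shared between lists. Spearman's rho was 0.72 between the unmodified lists, 0.45 between the first and the control list and 0.52 between the second and the control list, across sites, which share genes and libraries. Over all 8980 shared sites the values were 0.74, 0.69 and 0.65. The inner-start site of MAP2K2 and the sites of MAP3K7 and MAP3K8 were high in each list, while 2 other MAP2K2 sites were low in control cells (6.87 and 7.62) and the MAPKAPK3 promoter was low in the second list and high in control cells.

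**Figure D4:**
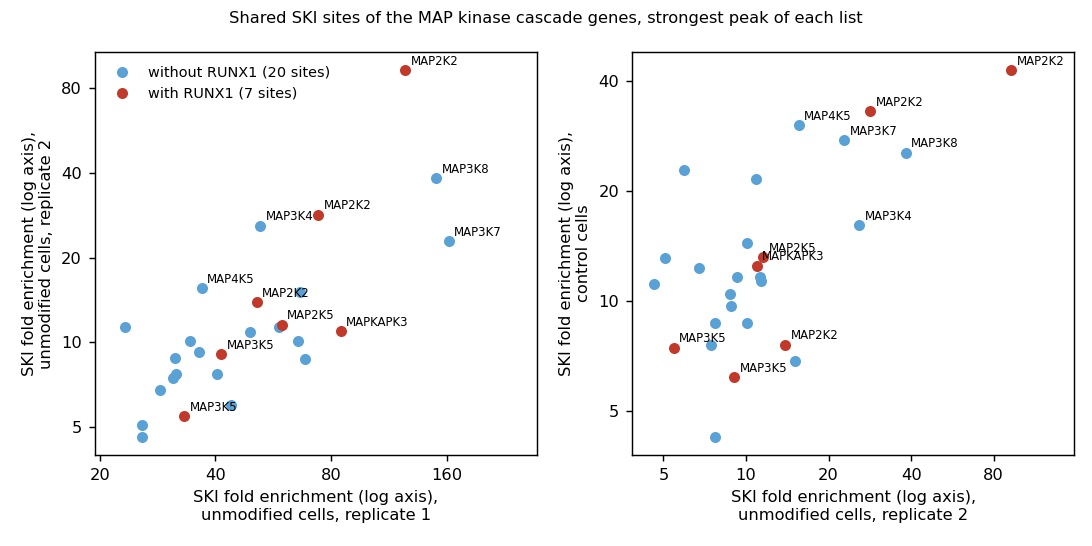
The authors' SKI fold enrichment at the 27 shared sites (points), unmodified replicate 2 against replicate 1 (left) and control cells against replicate 2 (right), all axes logarithmic; red points carry a RUNX1 peak (7) and blue points do not (20). The red points span most of the range of the blue ones, and the joint site of MAP2K2 is the highest in replicate 2 and in control cells.

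Member peaks had about the tags of other peaks. The median was 135 tags a peak in the first list, against 110 for peaks of other genes, 56.5 against 56 in the second, 52 against 60 in control cells and 50.5 against 55 in the RUNX1 list. Median folds were 21.9 against 18.9, 8.93 against 9.93, 10.5 against 11.1 and 12.4 against 18.7. Members had a mean of 3.30 SKI peaks a gene in the first list, against 2.49, with a median of 2 in both groups. More than 1 peak was found at 31 of 43 members there (72.1%, 57.3 to 83.3%), against 55.9% of other genes, and this interval did not reach the value of the other genes. In the second list the shares were 18.6% against 15.1% and in control cells 16.3% against 14.1%. The number of peaks assigned to a gene also depends on its length and the gap to its neighbours, which the lists do not hold. The part of these in the counts was not tested.

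Other genes of the cascades, from a list of 39 that do not carry these symbols, were looked up in the same way, and 34 were named in the lists under the listed symbol. Of these, 13 (38.2%) had a shared SKI site, 10 (29.4%) a RUNX1 peak and 8 (23.5%) a joint site, beside 35.9%, 17.1% and 11.0% of the other protein-coding genes. Substrate kinases had 5 of 7 with a shared site and 4 of 7 with a joint site: RPS6KA1, RPS6KA2, RPS6KA5 and MKNK1. These are few genes, set against the same 35.9% and 11.0%. Of the RAS genes, which start the ERK branch, RRAS had a shared promoter site (highest folds of the gene 102.1, 27.49 and 22.46) and none of 5 named had RUNX1. ARAF and BRAF, which act at the MAP3K level of the ERK branch, had no shared site.

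The ERK scaffold gene KSR1 had the highest RUNX1 fold of the list (85.43), at a joint site, and its highest SKI folds were 84.41, 61.70 and 106.02 in the 3 SKI lists. The TAK1 partner gene TAB2 had a joint site at its promoter (RUNX1 6.24), and TAB1 had a RUNX1 peak (40.75) without a shared SKI site.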

How the data were processed

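SKI and RUNX1 ChIP-seq peak lists of 4 HL60 samples were used, 1 list per sample. Per the file headers, the authors deposited for each peak a count of tags (not scaled for depth), a MACS fold enrichment (a ratio) and a −log10 p-value, whose lowest value over the lists was 5.001, with the nearest Ensembl transcript, its biotype and its distance. The submitters' processing notes name bcl2fastq, Bowtie2, MACS 1.4 and deepTools and the builds hg19 and GRCh37, without roles. The deposited distances follow the peak summit approximately: starts implied by peaks of 1 transcript spanned a median of 57 bp. Neither the sequencing depth nor the control library is stated in the labels or headers.

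Sites were made by joining SKI peaks that touch over 1 bp or more (Python 3.11.15, pandas 2.3.3, numpy 2.4.6), and a site belonged to each gene its SKI peaks name. Shares carry 95% Wilson intervals (scipy 1.17.1), and no test was run, since the lists hold peaks and not replicate counts. The joining was tested on simulated intervals. Promoter means within 1000 bp of the assigned TSS, and an inner start lies over 5000 bp downstream of the most upstream start that the lists name for the gene. Members and gene lists were chosen with earlier results of these data known. Members were named, apart from 1 that is not reported here by name, with full values for up to 10 members with the most joint sites, the member of each tier with the most shared sites, the 4 best shared sites by worst rank without RUNX1 and the 3 highest RUNX1 peaks outside shared sites, and for the pathway core. The inner start limit and the printed promoters were chosen after seeing the data. Alternatives changed the p threshold, list length, distance, promoter window, RUNX1 overlap, denominator and SKI lists used. Samples without a list used here were left out.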

Additional observations from a re-analysis of the deposited data

Results flagged for a closer look

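MAP3K14, the NF-kappaB inducing kinase gene, carries a symbol of the family but fell outside the comparisons because the lists give it the biotype processed_transcript. It had 10 SKI peaks in the first unmodified list, where other protein-coding genes had a mean of 2.49 and a maximum of 33, 2 in the second, 2 in control cells and no RUNX1 peak. Its 10 sites included no shared one. The highest fold was 32.42, in an intron, and the peak at its TSS had 16.10 in the first list and 5.50 in the second.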

How the results depend on the processing

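Over 14 settings, 58 of 61 recomputed values stayed within the share's counting interval or, for medians, within a standard deviation over genes or peaks. The other 3 came from SKI lists of equal length: the share of members with a shared SKI site was 11.6%, with a promoter SKI site 11.6% and with a joint site 2.33%, against 12.8%, 7.45% and 6.56% of other genes. By construction that setting admits fewer peaks. The bound for medians was loose, because a standard deviation over genes or peaks is not the error of a median. In the second SKI list the median peaks per gene went from 1 to 0 at −log10 p of at least 10. That change still counted as within the bound. Leaving out 1 SKI list at a time gave 39.5% to 55.8% for shared sites (against 35.1% to 46.7% of other genes) and 34.9% to 51.2% for promoter sites (against 25.5% to 35.6% of other genes). Joint sites were at 9.30% each time, against 10.9% to 13.1% of other genes. RUNX1 overlapped 20.0% to 28.0% of the members' shared sites, against 22.0% to 27.6% of those of other genes. A promoter window of 500 bp gave 30.2%, against 24.9% of other genes. Requiring the gene to be named in every SKI list of the site, a setting added after seeing the data, gave 37.2% for shared sites and 6.98% for joint sites. The values of other genes were then 32.4% and 10.5%. The interval of the promoter share held the value of the other genes in 9 of 12 alternatives and lay above it in 3: kinases only, without the control list, and all 51 reference symbols (33.3% against 17.8%). That of the shared share held it in 9 of 10 and lay above it with all 51 reference symbols (37.3% against 23.9%). The RUNX1 and joint shares held it in every alternative run. No paired analysis was possible because fewer than 2 replicate numbers recur across groups. With 43 genes, 27 shared sites and 12 RUNX1 peaks, the intervals are wide. Peaks below the authors' threshold are not seen, and the first SKI list is longer than the others.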

Other observations

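A pair of further kinases of the family appear in the lists under older symbols and were counted among the other genes. MAP3K20, listed as MLTK, had 3 SKI peaks in the first unmodified list, 1 in the second, none in control cells and 1 RUNX1 peak. MAP3K21, listed as MLK4, had 2, 0 and 1 SKI peaks and no RUNX1 peak. Neither had a shared SKI site. Of the 51 protein-coding symbols of the family in the reference table, 5 were named by no peak used here: MAPK4, MAPK7, MAPK15, MAP2K6 and MAPK8IP2.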
